A study of Mus musculus with 11 samples.

Results

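Chromatin accessibility around 9 adipocyte lineage genes was examined in a mesenchymal line that can form osteocytes, from 6 cultures of undifferentiated cells and 5 of osteocytes pooled. The genes were 4 transcriptional regulators (Pparg, Cebpa, Cebpb and Cebpd) and 5 effectors (Lpl, Fabp4, Adipoq, Plin1 and Cidec), listed by name with no threshold on a measured value. Their members were the regions of the deposited ATACseq list that overlapped each gene or the 50 kb upstream of it, which gave 83 of the 94963 regions in the list, 43 for the regulators and 40 for the effectors. No window overlapped another. ATACseq uses the Tn5 transposase to cut open DNA, so a region marks sequence that was reachable in at least part of the cells.

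The cells were MPC2, a conditionally immortalised mouse mesenchymal line that is a single clone (clone 2). The labels gave 4 groups of cultures: undifferentiated MSCs with vehicle (DMSO, n = 3), MSCs with FG-4592 (n = 3), osteocytes with vehicle (n = 2) and osteocytes with FG-4592 (n = 3). Osteocytes had spent 3 weeks in mineralising medium, and FG-4592 (Roxadustat), which inhibits the prolyl hydroxylases that mark HIF proteins for breakdown, was given at 50 uM for 48 h. The list pools all 11 cultures and holds 1 value per region, read as the average log2 CPM over the samples and called the level here. From this list no group could be compared with another, no value has a replicate error, no test was possible, and the depth of each culture was unknown. In such pooled bulk data, a region open in fewer cells and a region less open in every cell cannot be told apart.

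Mesenchymal progenitors can become osteoblasts or adipocytes. In adipogenesis the bZIP factors C/EBPβ and C/EBPδ act early and switch on Pparg and Cebpa, whose products maintain each other and activate the genes of the fat cell. These effector genes encode proteins that take up, carry, coat and store lipid, or, like adiponectin, are secreted. The osteoblast programme led by Runx2 and the adipocyte programme led by PPARγ are known to oppose each other.

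The start sequences of both sets of genes are shown first, because they differ in base composition. The RefSeq table of promoter sequences (build GRCm38.p6) matched 6 of the 9 members, Pparg, Cebpa, Cebpb, Adipoq, Plin1 and Cidec. Cebpd, Lpl and Fabp4 were not matched. The 250 bases before a start are printed 5′ to 3′ on the strand of the gene, with each CpG in capitals: for Cebpb chr2:167688665-167688914 (+), for Cebpa chr7:35119043-35119292 (+), for Cidec chr6:113435761-113436010 (-) and for Adipoq chr16:23146286-23146535 (+). These 4 stretches precede the first annotated start of each gene and lay within an accessible region, which was not so of every entry in the table. The 250 bases before a second Cidec start held 6 CpGs and overlapped no region, and 200 of the 250 bases of the Plin1 entry lay in one. The entries of Plin1 and of the first Pparg starts overlap transcribed noncoding exon sequence and are not printed.
Cebpb: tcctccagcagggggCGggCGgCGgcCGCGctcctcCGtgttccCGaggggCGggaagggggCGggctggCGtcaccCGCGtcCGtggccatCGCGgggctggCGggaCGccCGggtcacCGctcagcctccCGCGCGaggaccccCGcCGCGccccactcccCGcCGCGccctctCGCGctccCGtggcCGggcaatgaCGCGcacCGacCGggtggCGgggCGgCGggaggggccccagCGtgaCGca
Cebpa: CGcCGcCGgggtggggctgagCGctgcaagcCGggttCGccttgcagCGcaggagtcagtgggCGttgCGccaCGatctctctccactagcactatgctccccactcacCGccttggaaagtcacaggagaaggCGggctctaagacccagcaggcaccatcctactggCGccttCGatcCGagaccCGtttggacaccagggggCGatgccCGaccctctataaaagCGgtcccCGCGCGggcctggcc
Cidec: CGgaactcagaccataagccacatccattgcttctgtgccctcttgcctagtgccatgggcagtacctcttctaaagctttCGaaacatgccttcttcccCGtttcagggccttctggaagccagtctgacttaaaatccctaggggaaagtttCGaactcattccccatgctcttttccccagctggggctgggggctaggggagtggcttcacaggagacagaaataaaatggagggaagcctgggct
Adipoq: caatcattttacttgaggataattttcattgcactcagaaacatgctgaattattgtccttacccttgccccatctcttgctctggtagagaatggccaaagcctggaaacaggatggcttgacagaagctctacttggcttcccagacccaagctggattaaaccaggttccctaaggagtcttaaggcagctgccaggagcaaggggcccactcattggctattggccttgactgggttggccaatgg
The Cebpb stretch held 41 CpGs and was 81.6% GC, and the Cebpa stretch held 22 and was 66.4% GC. The Cidec stretch held 4 CpGs at 52.8% GC, and the Adipoq stretch held none at 48.8% GC. Over the 32851 promoter entries of the table the median was 6 CpGs, and 7.87% had none.

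Every one of the 9 genes had a region covering its first annotated start. Among all 21938 protein-coding genes, 59.1% had a region within 1000 bp of the first start, and 64.1% had one within 1000 bp of any annotated start. The share depended on base composition. A start was called CpG-rich when the 500 bp to either side had at least 55% GC and an observed over expected CpG ratio of at least 0.6. Such starts had a region in 90.3% of 8406 genes, against 39.8% of the 13532 genes with a CpG-poor start. All 4 regulators had CpG-rich starts, with ratios from 0.86 to 1.01, and all 5 effectors had CpG-poor starts, with ratios from 0.11 to 0.52. The 4 of 4 regulators therefore stood beside a background of 90.3%, and the 5 of 5 effectors beside one of 39.8%. The effectors' regions were narrow at 3 genes: with regions of at least 500 bp only, Fabp4, Plin1 and Cidec had none at their starts.

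The start regions of the regulators were higher than those of 4 of the 5 effectors. At the regulators the level was 6.65 for Cebpd, 6.40 for Cebpa, 5.43 for Pparg and 5.08 log2 CPM for Cebpb. At the effectors it was 5.67 for Lpl, 2.96 for Adipoq, 2.32 for Cidec, 1.18 for Plin1 and 1.05 log2 CPM for Fabp4. The medians were 5.92 and 2.32 log2 CPM, a difference of 3.59. The sets overlapped, since Lpl lay within the range of the regulators. When each member was left out in turn, the difference of medians lay between 3.10 and 4.16. This contrast was chosen after the data were seen.

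A wider region collects more cuts, and levels of different genes are therefore compared per kb of region width in the following sentences. On that scale the regulators' start regions ran from 4.66 (Pparg) to 5.91 log2 CPM per kb (Cebpd), and the effectors' from 3.05 (Fabp4) to 3.99 log2 CPM per kb (Lpl), so the groups did not overlap. The difference of medians was 1.86. The place of Lpl depended on the scale. Its level exceeded that of 72.6% of the 12968 coding start regions, but its level per kb exceeded only 26.0% of them. Its region was 3203 bp wide against a median of 1131 bp.

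Set beside starts of their own base composition, the regulators lay on both sides of the middle per kb and the effectors below it. The median CpG-rich start region had 5.02 and the median CpG-poor one 4.29 log2 CPM per kb. Among CpG-rich starts, Cebpd exceeded 88.0%, Cebpa 76.9%, Cebpb 47.4% and Pparg 33.0% on the per-kb scale. Among CpG-poor starts that had a region, Lpl exceeded 41.1%, Adipoq 37.1%, Cidec 26.7%, Plin1 24.2% and Fabp4 15.1%. Per kb, all 5 effectors were thus under the median of the accessible CpG-poor starts. On the level scale Lpl was above it and exceeded 87.5% of them, and the other 4 stayed below. Among CpG-rich starts the level scale gave 93.7% for Cebpd, 88.4% for Cebpa, 51.8% for Pparg and 37.7% for Cebpb. A further 8151 CpG-poor starts had no region in the list at all.

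**Figure D1:**
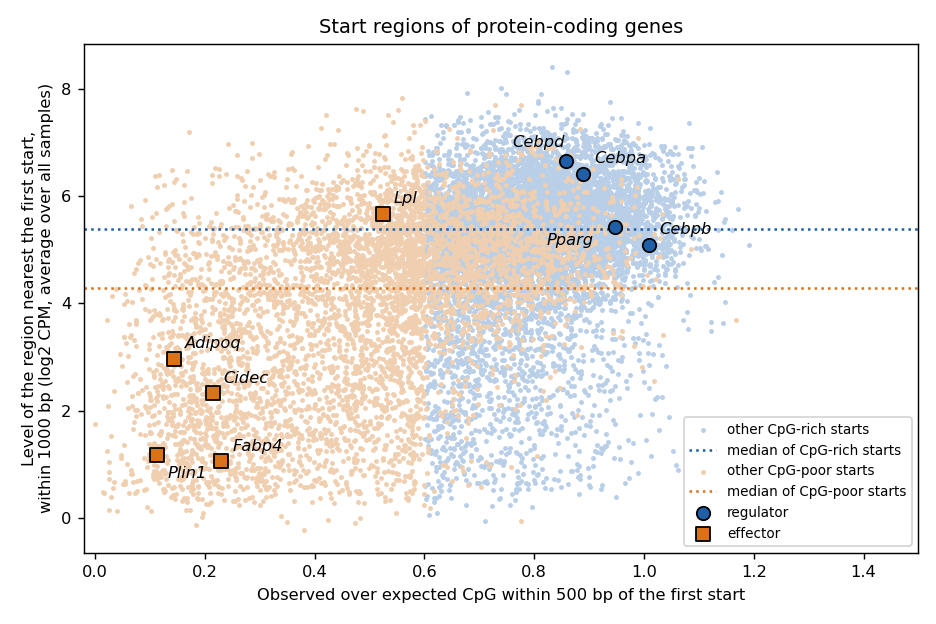
Level of the region nearest the first start (vertical axis, log2 CPM averaged over all samples) against the observed over expected CpG ratio within 500 bp of that start (horizontal axis) for protein-coding genes with a region within 1000 bp; pale points are other genes, blue circles the 4 regulators and orange squares the 5 effectors, and dotted lines mark the class medians of 5.39 (CpG-rich) and 4.28 (CpG-poor). The regulators sit at ratios from 0.86 to 1.01, and 4 of the 5 effectors sit at the lower left, below 3 log2 CPM.

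Cebpd, the early C/EBP factor, had the highest start region of the 9 genes. The region (chr16:15886591-15888261, 1671 bp) took in the start, the coding exon and 1 C/EBP match, and held 60.8% of the summed CPM of its window. Its other 6 regions were upstream, at levels from 0.14 to 5.66 log2 CPM, and the highest of these covered the start of Mzt2. Both Cebpd and Adipoq lie on chromosome 16, where the median CpG-rich start region had 6.04 log2 CPM against 5.39 over all chromosomes, and the median CpG-poor one 4.20 against 4.28. With each level taken relative to the median start region of its chromosome, the difference between regulators and effectors was 3.42 log2 CPM.

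Cebpa, which holds the adipocyte state together with PPARγ, had a start region of 6.40 log2 CPM (chr7:35118012-35119770, 1759 bp). It also covered the start of an antisense transcript, Gm45091, so its cuts cannot be assigned to either start. The region held 10 matches to the core of the hypoxia response element, the sequence bound by HIF proteins, at 8 separate places (a palindrome counts on both strands), and 63.4% of the window's summed CPM. Both forms of this core contain a CpG, and the region was 66.2% GC with a CpG ratio of 0.83. At least 1 match was found in 46.2% of list regions, and the count was not set beside regions of like width and composition. A second region in the gene, 2136 bp after the start in the noncoding part of the last exon (exon 2 of the first transcript), had a level of 3.35 and 4.79 log2 CPM per kb over 369 bp. It held 3 C/EBP matches, the most of any region in the 9 windows. The remaining 6 regions were intergenic, from 42.5 to 11.4 kb upstream, at levels from 1.05 to 3.66 log2 CPM.

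Cebpb, the other early factor, had its start region at chr2:167688245-167689326 with a level of 5.08 log2 CPM. It was the only Cebpb region that touched the gene. The other 11 lay within Tmem189 or the readthrough gene Gm20431, and a start of Tmem189 lay within 1000 bp of the Cebpb region itself. The highest region of the window was not at Cebpb but at the start of those genes 27.1 kb upstream, with 5.23 log2 CPM. Starts of other coding genes accounted for 42.4% of the summed CPM, and the Cebpb start region for 26.5%. The window held 12 regions, more than 98.1% of the windows of like length (median 3 regions).

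Pparg, the nuclear receptor that commits cells to the fat lineage, had 16 regions, 12 of them in the gene. The first start was covered by a region of 5.43 log2 CPM (chr6:115360808-115362513, 1706 bp), which also covered 3 later annotated starts. The adipocyte isoform PPARγ2 is known to be made from a separate start farther into the locus, which the annotation places at position 115422066, 61115 bp after the first. No region covered that start. The nearest (chr6:115421669-115422033, 1.82 log2 CPM, 365 bp) ended 33 bp short of it, and the next (chr6:115420782-115421369) had 2.59 log2 CPM. The 250 bases before this start (chr6:115421816-115422065, +, RefSeq, GRCm38.p6) are shown with matches to the C/EBP sequence TTGCNNAA in capitals, because 1 lies inside the region and the other in the uncovered stretch next to the start.
Pparg, later start: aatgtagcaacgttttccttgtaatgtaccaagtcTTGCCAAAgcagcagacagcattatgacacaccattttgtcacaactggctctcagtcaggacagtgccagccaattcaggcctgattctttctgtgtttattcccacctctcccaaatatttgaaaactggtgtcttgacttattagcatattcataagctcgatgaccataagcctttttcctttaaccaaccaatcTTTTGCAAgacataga
The inner match began 16 bases before the start and the outer one 215 bases before it. Among all promoter entries of this length, 9.56% held at least 1 such match and 0.57% held 2 or more. This stretch had 2 CpGs and was 40.8% GC, so both Pparg starts differed in composition as well as in accessibility.

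The other Pparg regions inside the gene were mostly low. In the first intron a region of 200 bp had 0.55 log2 CPM, 699 bp from the start of 1 further transcript. In the second intron, regions at 29.3, 36.2 and 63.6 kb after the first start had 2.03, 0.79 and 1.86 log2 CPM. The fourth intron held 1 region of 0.94. From the fifth intron to the seventh the levels were 2.70 at 102 kb (with a coding exon), 2.84 at 109 kb, 0.40 at 116 kb and 4.06 log2 CPM at 119.5 kb. The last of these, in intron 7 and 970 bp wide, was the highest in the gene apart from the first start and held 2 AP-1 matches. Upstream, 4 intergenic regions had levels from 1.69 to 4.25 log2 CPM, the highest at 44.3 kb.

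**Figure D2:**
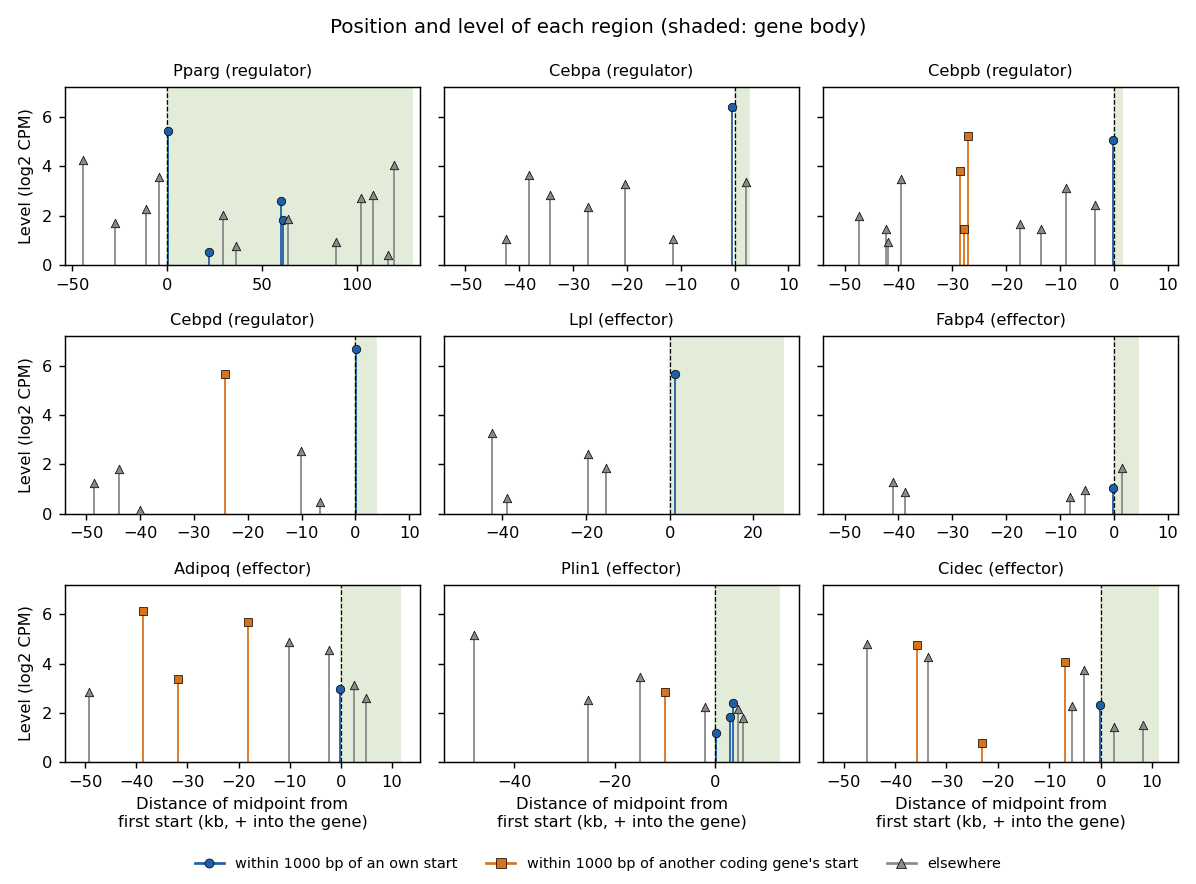
Level of each of the 83 regions (vertical axis, log2 CPM averaged over all samples) against the distance of its midpoint from the first start of the gene (horizontal axis, kb, positive into the gene), 1 panel per gene, with the gene body shaded. Blue circles are regions within 1000 bp of an own start, orange squares within 1000 bp of another coding gene's start, and grey triangles the rest; the start region is the tallest at Pparg, Cebpa, Cebpd and Lpl, and the lowest at Plin1.

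Lpl, the lipase that frees fatty acids from lipoproteins, was the effector closest to the regulators. It had a single region inside the gene, at chr8:68880257-68883459, which covered the start, the first coding exon and part of intron 1 and held 71.6% of the window's summed CPM. The other 4 regions were intergenic, from 42.5 to 15.2 kb upstream, with levels from 0.62 to 3.26 log2 CPM. With 5 regions the window was near the middle for its length: 45.6% of like windows had fewer.

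Fabp4, the fatty acid carrier of mature adipocytes, was the least accessible locus. Its 6 regions had levels of 1.87, 1.27, 1.05, 0.96, 0.89 and 0.66 log2 CPM, all below the median of 2.12 over the whole list. The start region (chr3:10208528-10208777, 250 bp) had 1.05 log2 CPM, and the highest region (chr3:10206755-10207413, 659 bp) lay 1492 bp after the start. The summed CPM of the window was 13.5, against 71.0 to 215 for the other 8 genes. Both far upstream regions lay in introns of Fabp12, a neighbouring gene of the same family.

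Adipoq encodes adiponectin, a hormone made almost entirely by fat cells. Its window had the highest summed CPM, but most of it was not at Adipoq: starts of Eif4a2 and Rfc4, which encode widely used initiation and replication factors, took 61.3%, with levels of 6.12, 5.71 and 3.36 log2 CPM. The Adipoq start region (chr16:23146092-23146640, 549 bp) had 2.96 log2 CPM and 3.62% of the sum. In the first intron, regions of 449 and 463 bp had 3.12 and 2.62 log2 CPM, at distances of 2626 and 4962 bp from the start. The 5 RUNX matches of the second lay in a simple repeat of CA type. The higher regions were intergenic and upstream. The region centred 2216 bp before the start (chr16:23143763-23144877, 1115 bp) had 4.57 log2 CPM, 2 C/EBP matches, 1 AP-1 match and 6 RUNX matches. The region 10060 bp before the start (chr16:23135503-23137449, 1947 bp) had 4.89 log2 CPM.

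That last region shares its sequence with another one in the window. The region 49266 bp before the start (chr16:23096848-23097692, 845 bp, 2.87 log2 CPM) had 376 stretches of 25 bases in common with it, against at most 6 between any other pair of the 83 regions. An alignment of the locus with itself gave an inverted copy: chr16:23096693-23097856 matched chr16:23136420-23137572 in reverse at 90.8% identity over 1190 bp, and chr16:23090942-23092929 matched chr16:23137554-23139555 at 96.5% over 2005 bp. The aligned stretches adjoin in the nearer copy and are apart in the farther one. The stretch with the C/EBP and AP-1 matches is shown from both copies in the same orientation (GRCm38.p6), with the matches in capitals, because both copies carry the pair at the same spacing.
Copy 49.3 kb upstream, chr16:23097449-23097501 (+): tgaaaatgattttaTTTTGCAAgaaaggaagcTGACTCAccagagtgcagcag
Copy 10.1 kb upstream, chr16:23136767-23136819 (-): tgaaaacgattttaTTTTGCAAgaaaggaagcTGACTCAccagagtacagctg
These 53 bases differed at 3 positions, none of them in a match. The authors discarded reads of low mapping quality, which can remove reads from such copies, and the part of this in either level was not tested.

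Plin1 encodes perilipin, the coat protein of the fat cell's lipid droplet. Its start region (chr7:79732752-79732976, 225 bp) had 1.18 log2 CPM and 2.71% of the window's summed CPM, and it was the lowest of the 10 regions. Inside the gene, 4 more regions formed a row between 2956 and 5596 bp after the start, with levels of 1.83, 2.41, 2.16 and 1.80 log2 CPM and widths from 270 to 377 bp. The first of them covered the start of a shorter coding transcript. The highest region of the window, 48.1 kb upstream in an intron of Wdr93, had 5.17 log2 CPM and held 3 AP-1 and 2 C/EBP matches.

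Cidec encodes a protein that fuses lipid droplets. Its start region (chr6:113435662-113436127, 466 bp) had 2.32 log2 CPM and 4.11% of the window's summed CPM. The other regions inside the gene, 2594 and 8236 bp after the start, had 1.43 and 1.52 log2 CPM. Upstream, the intergenic regions 5593 and 3206 bp before the start had 2.29 and 3.76 log2 CPM. The lowest region of the window, 0.79 log2 CPM, was at the start of Il17re, and the highest, 4.81 log2 CPM, at an exon of Il17rc 45.4 kb away. This highest region held the only element in the 83 regions with at most 1 mismatch to DR1, the direct repeat of AGGTCA half-sites 1 base apart that PPARγ binds with RXR, at chr6:113481473-113481485. Such an element was in 1.20% of the 83 regions, near the 1.07% of the whole list. The element of this region is shown in capitals with 20 bases to either side, on the plus strand (GRCm38.p6).
Cidec, DR1: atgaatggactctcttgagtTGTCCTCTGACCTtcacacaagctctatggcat

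Over whole windows the medians of both sets lay closer together than at the starts. The median region had 2.34 log2 CPM for the regulators (95% order-statistic interval 1.69 to 3.13) and 2.47 for the effectors (1.87 to 3.26), beside 2.12 over the list. These intervals treat regions as separate draws and carry no replicate error. The difference of -0.13 changed sign in several alternatives: it was 0.10 with 20 kb upstream, 0.30 with 100 kb, 0.63 within the genes, 0.15 without the chromosome 16 members and 0.11 without Adipoq. Regions away from all coding starts had medians of 2.01 (32 regions, regulators) and 2.36 log2 CPM (26 regions, effectors). The counts of regions were 7 and 7 at own starts, and 4 and 7 at starts of other coding genes. Apart from Lpl, every window held more regions than at least 68.9% of coding-gene windows of like length.

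**Figure D3:**
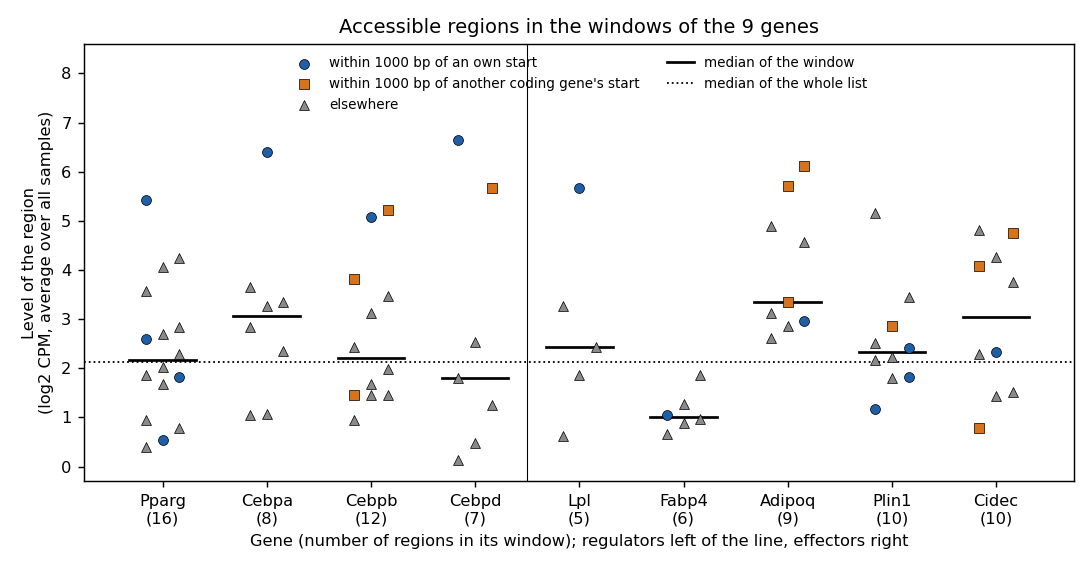
Level of each region (vertical axis, log2 CPM averaged over all samples) for the 9 genes, with the number of regions under each name and the regulators left of the line; symbols give the site of the region, short bars the median of each window and the dotted line the median of the list, 2.12. A region at an own start tops the columns of Pparg, Cebpa, Cebpd and Lpl and none of the other columns.

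Sequence motifs were counted on both strands in the 83 regions and set beside list regions whose width differed by at most 20%. C/EBP matches (TTGCNNAA) were found in 30 of 83 regions, or 36.1%, beside 24.6% of regions of like width. The share was 32.6% for the regulators, beside 23.8%, and 40.0% for the effectors, beside 25.5%. Pparg held 7 of the 14 regulator regions with a match, and without Pparg the regulator share was 25.9% beside 23.1%. With another regulator left out it was 30.6% to 38.7%. DR1 elements with at most 2 mismatches were found in 11 regions, 13.3% beside 8.74%. The copied regions upstream of Adipoq each hold C/EBP, AP-1 and DR1 matches at corresponding positions, and count here as 2 regions although they share 1 sequence. Without the Adipoq regions the DR1 share was 9.46% beside 8.29%, and that of C/EBP 33.8% beside 23.4%. The palindromic C/EBP form TTGCGCAA was in none of the 83 regions and in 0.24% of the list.

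RUNX matches (TGTGGT), the sequence read by the osteoblast regulator Runx2, were unequal between both sets: 11 of 43 regulator regions (25.6%, beside 42.7%) and 21 of 40 effector regions (52.5%, beside 45.1%), or 38.6% of all 83 beside 43.8%. Adipoq held 8 of the 21, among them the copied pair and the CA repeat, and without Adipoq the effector share was 41.9% beside 42.5%. HRE cores (ACGTG or GCGTG) were found in 44.2% of regulator and 62.5% of effector regions, beside 47.3% and 49.6%. Plin1 and Cidec each held a core in 8 of 10 regions. With 1 of these 2 genes left out the effector share was 56.7%, beside 51.3% (without Plin1) and 50.8% (without Cidec). With another effector left out it was 64.7% to 67.7%. AP-1 (TGANTCA), TEAD (GGAATG) and EBF (CCCNNGGG) matches were within 2 percentage points of the like-width share over the full width of all 83 regions, with 27.7% beside 28.8%, 31.3% beside 32.8% and 25.3% beside 24.4%. Motifs of different names may overlap. Regions of 1 gene are not independent, and a match is a description of letters, not of binding.

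**Figure D4:**
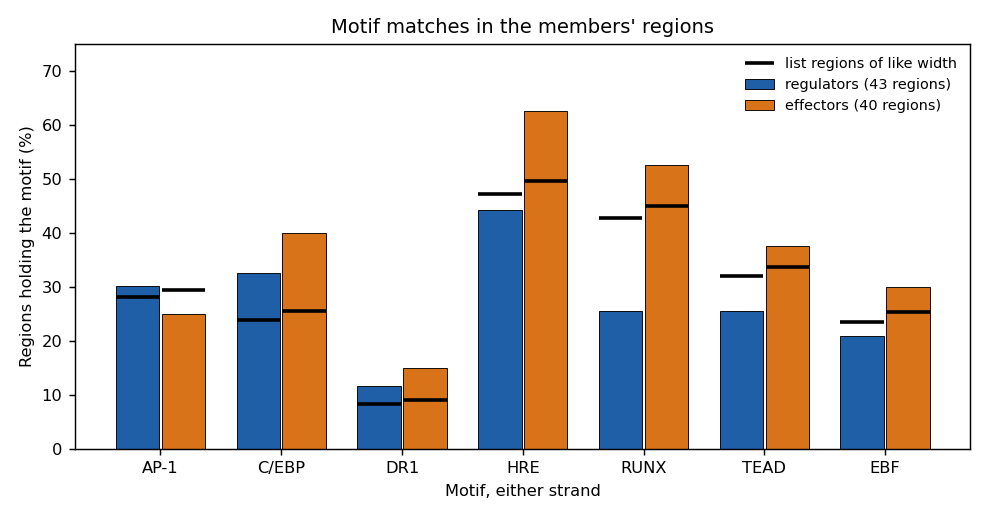
Percent of regions holding each motif (vertical axis) for 43 regulator regions (blue bars) and 40 effector regions (orange bars), with black lines at the share among list regions of like width. The C/EBP bars stand at 32.6% and 40.0%, both above their lines, and the RUNX bars at 25.6% and 52.5%, below and above theirs. Without the Adipoq regions the effector value for RUNX is 41.9%, beside 42.5%. Without the Pparg regions the regulator value for C/EBP is 25.9%, beside 23.1%.

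Wider lists of adipocyte genes were set beside the members. Counting a region within 1000 bp of any start (background 64.1%), 19 of 20 further regulators had one, the exception being Dlk1, a preadipocyte surface protein. The highest were Nr3c1 (7.30 log2 CPM), the glucocorticoid receptor, Klf4 (6.65) and Stat5a (6.39). Of 23 further effectors, 17 had one, and the 6 without were Cd36, Lep, Cfd, Gpd1, Ucp1 and Pck1. The highest were Fasn (6.75 log2 CPM) and Acaca (6.64), which make fatty acids in many cell types, and Acsl1 (6.65), which activates them. The median over the further effectors with a region was 5.12 log2 CPM, against 2.41 for the 5 members on the same measure. The median widths were 1326 and 466 bp, and per kb the medians were 4.61 and 3.82 log2 CPM. The further regulators with a region had a median of 5.09 log2 CPM, and 5.00 per kb, beside 5.03 and 4.75 over all coding genes. The raw gap between the member sets was therefore not seen in the wider lists. By the first start, 9 of 10 further regulators with a CpG-rich start and 6 of 10 with a CpG-poor one had a region. For the further effectors these counts were 7 of 7 and 8 of 16, beside 90.3% and 39.8% of all such genes.

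The same measure was taken for bone and cartilage genes. The background was again 64.1% for any start, and 39.8% for the first start where it is CpG-poor. Of the 10 osteogenic effectors, 9 had CpG-poor first starts, and 7 of these had a region there. Osteogenic regulators had a region at 5 of the 6 genes reported, with Atf4 the exception, and levels from 3.47 (Msx2) to 5.37 log2 CPM (Dlx5), with Runx2 at 5.05. Osteogenic effectors had one at 8 of 10 genes, without Phex and Mepe, from 2.33 (Alpl) to 5.47 log2 CPM (Sparc) with a median of 4.15. On the raw level, Lpl lay above that range, Adipoq and Plin1 at its low end, Cidec just below it and Fabp4 far below it. Per kb the osteogenic effectors ran from 3.20 (Ibsp) to 5.34 log2 CPM (Sparc), a range that held Lpl (3.99), Adipoq (3.83), Plin1 (3.82) and Cidec (3.42), with Fabp4 at 3.05. Per kb, the medians of the osteogenic effectors and of the 5 adipocyte effectors were both 3.82 log2 CPM. The osteocyte markers Phex and Sost had no region at a start, while Dmp1 had one of 4.41 log2 CPM. Chondrocyte regulators had one at 3 of 3 genes and chondrocyte effectors at 3 of 7, without Acan, Col10a1, Matn1 and Col9a1.

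Beside the members, 14 markers of blood, endothelial, epithelial, muscle, liver and nerve cells were examined. A region was found at a start of 5 of them, beside 64.1% of all protein-coding genes, at levels of 1.89 for Pecam1, 2.41 for Rbfox3, 2.76 for Snap25, 2.91 for Apoa1 and 3.38 log2 CPM for Spi1. The other 9 (Ptprc, Cd3e, Cdh5, Tek, Epcam, Cdh1, Myod1, Myog and Alb) had none, so both nerve markers had a region and no epithelial or muscle marker did. By the first start 3 had one, all among the 13 markers with CpG-poor starts, beside 39.8% of all genes with such starts. These counts are a description and do not settle the labelled cell type. On the raw level Adipoq, Plin1 and Cidec lay inside the range of those 5 markers, Lpl (5.67 log2 CPM) above it and Fabp4 below it. Per kb the markers ran from 3.05 to 3.81 log2 CPM, and the median was 3.54 log2 CPM for the markers and 3.82 for the adipocyte effectors. On that scale Cidec (3.42) lay inside the range and Fabp4 (3.05) at its lower end. Lpl (3.99) lay above the range, and Adipoq (3.83) and Plin1 (3.82) just above it.

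**Figure D5:**
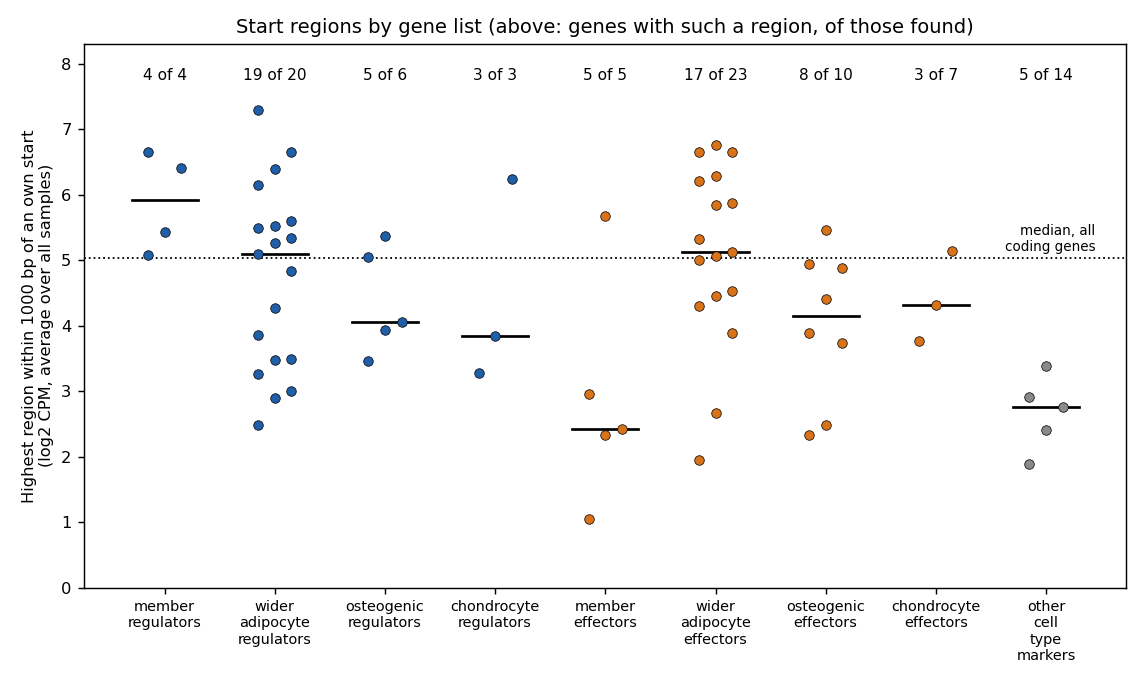
Level of the highest region within 1000 bp of any own start (vertical axis, log2 CPM averaged over all samples) for each gene with such a region, by list, with bars at the list medians, the dotted line at the median of all coding genes and the number of genes with a region above each column. The 5 member effectors have a median of 2.41, and the markers of other cell types one of 2.76, while the 4 member regulators have one of 5.92.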

How the data were processed

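ATACseq was performed by the authors on cultures of MPC2 cells, and 1 sample with poor quality was left out by them. The labels list the 11 that remain, and the vehicle osteocytes have no replicate 1 among them. The authors trimmed reads, aligned them to mm10 with Bowtie2, removed duplicates with Picard 2.17.8 and reads of low mapping quality, called peaks with MACS2 2.2.7.1, merged the peaks of the samples and normalised cut counts with edgeR 3.24.3 (versions from the submitters' processing notes). The deposited log2 values, 1 per region for all samples together, were read as average log2 CPM because 460 of them were below 0 and the values, taken as powers of 2, added up to 1012761. A shift of read ends for Tn5 was not stated. A merged region spans all the peaks that were joined into it.

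Coordinates are 1-based mm10, and GRCm38.p6 served as the genome. Genes and starts came from GENCODE vM21. A region was assigned to a gene where it overlapped the window from 50 kb upstream to the gene end, and to a start where it lay within 1000 bp. Windows of like length and regions of like width differed by at most 20%. Copies were aligned with blastn 2.17.0 (word size 28, at least 1000 bp). The text names all 9 members, their start regions, every region inside the genes and the highest region of each window. From the wider adipocyte lists it names the 3 highest genes and those with no region. Of the listed genes, 2 are not reported here. The members and lists were chosen with earlier results of these data known. Python 3.11.15, numpy 2.4.6 and pandas 2.3.3 were used, and the functions were tested on simulated data. No comparison between groups was made, since the list gives no value per sample, and the depth per sample is not given there.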

Additional observations from a re-analysis of the deposited data

How the results depend on the processing

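With regions of at least 500 bp only, 42 regions were left (21 and 21), the medians were 3.57 and 3.76 log2 CPM, and 2 of the 5 effectors kept a start region. A reach of 20 kb gave 52 regions (25 for the regulators), 100 kb gave 133 (70 and 63), and the genes alone 30 (16 and 14). The difference of median region level, regulators minus effectors, turned from -0.13 to 0.10, 0.30 and 0.63 in these 3 windows, to 0.15 without the chromosome 16 members and to 0.11 without Adipoq. Per kb of width the medians were 3.49 and 3.53, and relative to the median of the chromosome 0.15 and 0.21. The share of coding genes with a region at a start was 62.1% within 500 bp, 67.0% within 2000 bp, 58.3% covered, 59.1% for the first start, 62.4% for coding transcripts and 56.9% for regions of at least 500 bp.

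In the central 200 bp of each region, matches were found in 15.7% (AP-1, beside 15.2% of the same stretch of list regions of like width), 13.3% (C/EBP, 9.79%), 6.02% (DR1, 2.82%), 24.1% (HRE, 24.2%), 14.5% (RUNX, 22.2%), 9.64% (TEAD, 14.03%) and 13.3% (EBF, 9.30%) of the 83 regions. In regions of at least 500 bp the shares were 42.9% (AP-1, beside 36.2% of like-width regions), 52.4% (C/EBP, 34.7%), 66.7% (HRE, 67.7%), 59.5% (RUNX, 56.0%), 47.6% (TEAD, 45.0%), 21.4% (DR1, 12.6%) and 33.3% (EBF, 36.9%). With regions within 1000 bp of any start left out they were 33.9% (AP-1, beside 27.8%), 33.9% (C/EBP, 22.4%), 14.3% (DR1, 7.82%), 42.9% (HRE, 43.7%), 39.3% (RUNX, 42.0%), 33.9% (TEAD, 30.4%) and 19.6% (EBF, 20.3%). DR1 with at most 1 mismatch was found in 1.20% (1.07% of the list) and TTGCGCAA in 0% (0.24%).

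The contrast of start-region levels, its alternatives, the members left out in turn, for levels and motifs, and the EBF alternatives were chosen after seeing the data. No paired analysis was possible because each region carries a single value pooled over the cultures. For the same reason no replicate error limits any value here, and a low level cannot be told from a region open in only some cultures. Regions that missed the authors' filters are not in the list, so a start with no region is not shown to be closed.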

Other observations

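The inverted copy upstream of Adipoq was found after the values were seen. The longer aligned stretch, 2005 bp at 96.5% identity, held no region of the list in either copy, while the shorter one, 1190 bp at 90.8%, overlapped 1 in each, at 2.87 and 4.89 log2 CPM. The second of these regions runs beyond the aligned stretch, so its level is not that of the copied sequence alone. The list holds no value per sample or per read that would tell how many cuts came from either copy.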
